A study of Mus musculus with 18 samples.

Results

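The genes described here carry the names of subunits of the oxidative phosphorylation system, from both genomes of the cell. They were taken from the gene table by symbol, as all names starting with Nduf, Sdh, Uqcr, Cox4 to Cox8, Atp5 or the mitochondrial mt-Nd, mt-Co, mt-Cytb and mt-Atp, without pseudogenes named -ps. This gave 102 of 55450 genes, 89 in the nucleus and 13 on mitochondrial DNA (mtDNA). By name, 47 belong to complex I, 4 to complex II, 9 to complex III, 22 to complex IV and 20 to complex V. Of these, 7 averaged under 1 TPM, a transcript's share of all transcripts scaled to 1000000, over all samples, and 3 (Cox8b, Cox8c and Ndufa11b) were listed at 0 in every sample. Cox6c2, Ndufa11b, Ndufb4c and Ndufs6b are annotated as processed pseudogenes and stayed among the nuclear members. Every run of 75 bases in Ndufb4c also occurs in Ndufb4. In wild-type (WT) samples Ndufb4c averaged 226 TPM and Ndufb4 22.9.

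Messenger RNA was sequenced in 6 samples of each of 3 lines of P19, a mouse embryonic carcinoma line from a teratocarcinoma, to ask how a Dicer1 hotspot mutation found in tumours alters the transcriptome. Dicer is the enzyme that cuts microRNA precursors. WT cells carry both normal alleles, Dicer (+/+). HetKO cells, Dicer (+/-), have a frameshift truncation on 1 allele, and HM cells, Dicer (HM/-), carry the same truncated allele and a hotspot change of the RNase IIIb domain on the other. HM was made from the HetKO line, and each edited line is a single clone, so a difference between lines cannot be told apart from a difference between clones. No label says that the 6 samples of a line came from separate cultures, so p-values measure the spread between these samples, which may be technical.

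Dicer1 itself ranged from 49.2 to 54.8 TPM in WT, from 42.9 to 53.8 in HetKO and from 35.4 to 44.2 in HM, with a log2 fold change of -0.37 between HM and WT (SE 0.06, adjusted p = 0.000251). Fold changes and their adjusted p come from limma on log2(TPM + 1), with Benjamini-Hochberg adjustment over all genes tested, and a difference passed at an adjusted p under 0.05. All 8 embryonic carcinoma markers averaged 1 TPM or more in each line, with sums of 2970 to 3871 TPM, of which Pou5f1 gave 1814 to 2244. Single markers differed between the lines, with means in WT, HetKO and HM of 46.9, 86.3 and 18.8 TPM for Nanog, 24.5, 46.7 and 8.85 for Sall4, and 220, 148 and 381 for Utf1. Sums of the 5 endoderm markers stayed between 1.0 and 4.28 TPM, and of the 4 striated muscle markers between 0.13 and 11.8, while the 4 mesoderm markers ran from 3.99 to 115. The neural and fibroblast marker sums were 26.3 to 57.9 and 9.51 to 39.1 TPM. The part of these markers and cell types in the results below was not tested, and in bulk RNA fewer cells of a type and less RNA per cell cannot be told apart. The samples of a line fell into 3 pairs of close likeness, WT and HetKO replicates 1 and 4, 2 and 5, and 3 and 6, and HM replicates 1 and 4, 2 and 3, and 5 and 6. The robust SD of the log2 difference was 0.0493 to 0.105 within pairs and 0.073 to 0.358 otherwise. TPM keeps no read counts, so whether a pair agrees within sampling noise could not be tested, and counts of members and lists between HM and WT are given both with all 6 samples and with the 3 pair means.

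Oxidative phosphorylation carries electrons from NADH and succinate to oxygen through complexes I to IV, pumps protons across the inner mitochondrial membrane, and uses the gradient to make ATP at complex V. Complexes I, III, IV and V each combine nuclear subunits, imported as proteins, with a core encoded by mtDNA, while complex II is wholly nuclear. The mtDNA genes are transcribed as long polycistronic RNAs that are cut at the transfer RNAs, and mt-Nd6 alone of the protein genes lies on the opposite strand. Embryonic carcinoma cells, like other pluripotent cells, rely heavily on glycolysis but also respire.

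Reads from several mtDNA members could be assigned to another gene model, because the reference holds near-identical copies of them within 4663 bases of chromosome 1. These 7 copies, all on the minus strand of chr1:24611535-24616197 in GRCm38, are nuclear insertions of mitochondrial sequence. Over the bases that align, 5 of the 7 differed from their mtDNA gene at 0 positions. These were Gm28661 over 681 bases of mt-Co2, Gm10925 over 678 bases of mt-Atp6, Gm28437 over 783 of mt-Co3, Gm10222 over 294 of mt-Nd4l and Gm28439 over 876 of mt-Nd4. Gm28438 differed from mt-Nd3 at 1 of 345 bases (T3C, counted from 1 at the 5′ end of mt-Nd3). Gm29216, a copy of the last part of mt-Co1, differed at 6 of 492, all within the bases shown. The first 30 aligned bases, 5′ to 3′, are shown for an identical pair and for both pairs with differences, which stand in capitals. The mtDNA stretches are chrM:7013-7042, chrM:9459-9488 and chrM:6381-6410 on the plus strand, and those of the copies are chr1:24615536-24615565, chr1:24613090-24613119 and chr1:24616168-24616197 on the minus strand.
mt-Co2: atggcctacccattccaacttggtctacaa
Gm28661: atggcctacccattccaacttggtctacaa
mt-Nd3: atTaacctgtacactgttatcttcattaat
Gm28438: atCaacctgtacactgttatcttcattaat
mt-Co1: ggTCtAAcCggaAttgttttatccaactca
Gm29216: ggATtGGcAggaTttgttttatccaactca

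The share listed under the copies differed from gene to gene. In WT, mt-Co2 held 18.7 to 37.8% of the TPM of itself and its copy, mt-Atp6 12.5 to 30.5%, mt-Co3 24.2 to 63.9%, mt-Nd4l 47.2 to 67.5%, mt-Co1 71.9 to 74.7%, mt-Nd3 80.2 to 100% and mt-Nd4 98.8 to 99.8%. For mt-Nd4 and mt-Co1 the split hardly moved between samples. For mt-Co2, mt-Atp6 and mt-Nd4l it did, and in each line the sum varied less, relative to its mean, than the gene alone. For mt-Co2 the 6 WT samples ranged from 1690 to 3606 TPM alone, a mean of 2344 ± 773 (SD, n = 6), and with the copy the mean was 9111 ± 281 (SD, n = 6). For mt-Atp6 the mean was 1629 ± 683 alone and 9072 ± 301 with the copy (SD, n = 6). For mt-Co3 the sum itself differed between pairs of WT samples, at 6687 and 6380 TPM in replicates 1 and 4, 4463 and 4539 in 2 and 5, and 3911 and 3925 in 3 and 6. The fold changes of these genes between HM and WT are therefore also given with the copy added, an alternative chosen after seeing the data.

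**Figure D1:**
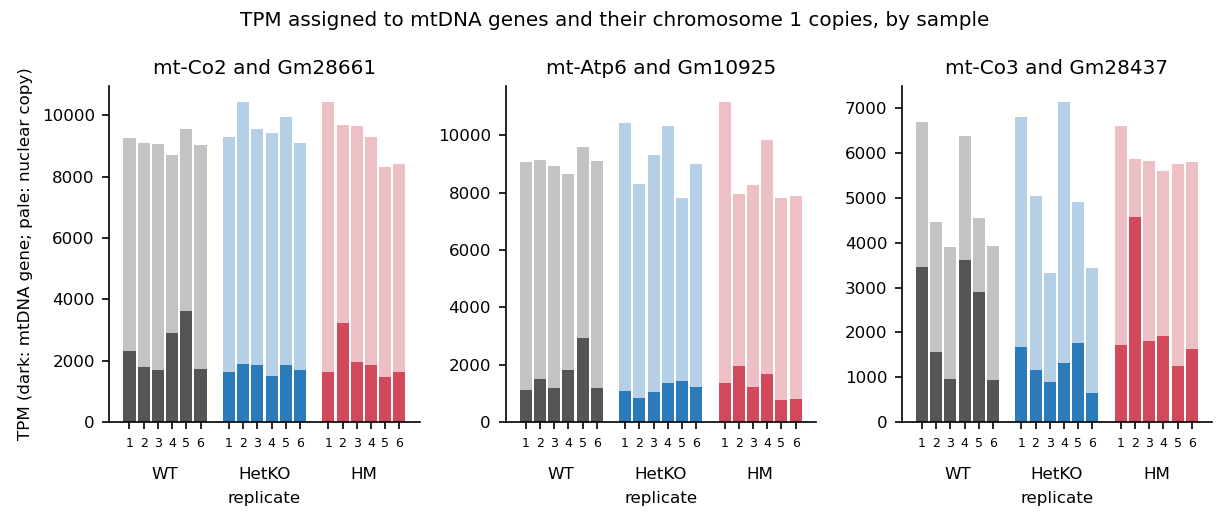
TPM by sample for mt-Co2, mt-Atp6 and mt-Co3 (dark part of each bar) and for the chromosome 1 copy of each (pale part), in 6 samples of each line. In most samples the pale part is the larger, and for mt-Co2 and mt-Atp6 the whole bar varies less, relative to its height, than the dark part does.

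Together the 13 mtDNA members held 5.15 to 6.18% of all TPM in WT, 5.23 to 5.86% in HetKO and 5.49 to 6.74% in HM. The 89 nuclear members held 2.06 to 2.19%, 2.06 to 2.20% and 1.99 to 2.18%. Both shares overlapped between the lines. A large part of the mtDNA share was mt-Atp8, a gene of 204 bases. In HM it ran from 24127 to 36778 TPM, where the 13 members summed to 54944 to 67372. The mtDNA share therefore follows that gene more than any other. With the chromosome 1 copies added, the mtDNA shares also overlapped, at 7.49 to 8.1%, 7.53 to 8.65% and 7.61 to 9.76%. The lines differed instead in groups of genes and in single genes. Over the 7 mtDNA genes of complex I, the mean log2(TPM + 1) was 9.73 to 10.02 in WT and 10.32 to 10.70 in HM. In HetKO it ran from 9.86 to 10.32.

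Between HM and WT, 9 of 13 mtDNA members passed the test at an adjusted p of 0.05, 8 higher and 1 lower in HM. Over all 14043 genes tested, 51.4% passed, 19.4% higher and 32.0% lower. All 7 mtDNA genes of complex I and mt-Cytb of complex III were higher, while of the 5 mtDNA genes of complexes IV and V only mt-Co1 passed, and it was lower. The median log2 fold change was 0.75 over the first 8 and -0.22 over the other 5, against -0.09 over all genes. These medians leave out the chromosome 1 copies. With copies added, the 13 members again gave 8 higher and 1 lower. The fold changes of mt-Co2, mt-Atp6 and mt-Co3 then moved up, as given below, so no fall of the 5 as a group is read from -0.22. With pair means, 7 of the 9 also passed, all of them higher, where 1182 of the 14043 genes were higher and 2232 lower. After quantile normalization and with samples centred on their median, 8 were again higher and none of the 13 was lower. Of the 14043 genes, 3632 and 4508 were then higher.

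mt-Cytb, the only mtDNA-encoded subunit of complex III and the cytochrome b that passes electrons within it, changed most among the mtDNA genes. Its TPM was 1570, 1686 and 1771 in WT (lowest, median and highest of 6 samples), 2052, 2236 and 2482 in HetKO, and 3044, 3547 and 3942 in HM. The 3 lines did not overlap, and the order was WT, HetKO, HM. HM exceeded WT by a log2 fold change of 1.05 (SE 0.06, adjusted p = 1.74e-07, pair means 0.00325).

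Among the complex I genes, which form the proton-pumping membrane arm, mt-Nd5 rose most. It stood at 441, 511 and 727 TPM in WT, 474, 658 and 752 in HetKO and 887, 1088 and 1263 in HM. Every HM sample was above every WT and HetKO sample. Against WT, HM had a log2 fold change of 0.98 (SE 0.13, adjusted p = 7.5e-05). mt-Nd3 stood at 634, 759 and 927 TPM in WT, 591, 769 and 897 in HetKO and 1200, 1277 and 1637 in HM, again with HM apart from both other lines. Its log2 fold change was 0.83 (SE 0.11, adjusted p = 9.6e-05), and 0.87 with the copy added.

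mt-Nd4, which is joined to mt-Nd4l on one transcript and overlaps it by 7 bases, ranged over 1411, 1515 and 1744 TPM in WT, 1552, 1697 and 1813 in HetKO and 2157, 2489 and 2762 in HM. HM was again separate from both lines, at a log2 fold change of 0.68 to WT (SE 0.07, adjusted p = 1.85e-05), and also 0.68 with the copy added. mt-Nd4l measured 1484, 1874 and 2096 TPM in WT, 1637, 1792 and 2484 in HetKO and 2071, 2702 and 3156 in HM, with 1 HM sample inside the WT range. Its log2 fold change was 0.56 alone (SE 0.11, adjusted p = 0.000996) and 0.71 with the copy (SE 0.06, adjusted p = 4.85e-06), close to that of mt-Nd4. The first 2 genes in the order of the mitochondrial genome, mt-Nd1 and mt-Nd2, rose less. mt-Nd1 stood at 2896, 3078 and 3285 TPM in WT and at 3505, 3764 and 4244 in HM, without overlap and with a log2 fold change of 0.31 (SE 0.05, adjusted p = 0.000285). For mt-Nd2 the values were 1237, 1305 and 1492 in WT and 1551, 1739 and 2187 in HM, at 0.40 (SE 0.08, adjusted p = 0.00115).

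mt-Nd6, which lies on the opposite strand and overlaps the end of mt-Nd5, was the most scattered of the complex I genes. Whether strand was used in counting is not given in the sources used here. It measured 116, 143 and 170 TPM in WT, 123, 228 and 551 in HetKO, and 97, 317 and 396 in HM. HM replicate 5 was below every WT sample and the other 5 were above. The log2 fold change of 0.92 between HM and WT (SE 0.28, adjusted p = 0.0163) did not pass with pair means (0.071) or without HM replicates 2 and 3 (0.0655).

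The genes between mt-Nd2 and mt-Nd3 on the mitochondrial genome, those of complexes IV and V, did not share the rise. mt-Co1, the catalytic subunit of cytochrome c oxidase, ranged over 9821, 10070 and 10930 TPM in WT, 8912, 9314 and 9786 in HetKO and 7566, 8852 and 9825 in HM. The HM range reached into that of WT by a single value, and HM replicates 2 and 3 were lowest at 7566 and 7577. The log2 fold change of -0.22 (SE 0.07, adjusted p = 0.0225) did not pass with pair means (0.134), without HM replicates 2 and 3 (-0.13, adjusted p = 0.104), after quantile normalization (0.338) or with samples centred on their median (0.681). With the copy added it was -0.25 (adjusted p = 0.0161).

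mt-Atp8, a short gene of 204 bases that overlaps mt-Atp6 by 43, had the highest TPM of all members. It was 27408, 28041 and 29745 in WT, 25002, 28996 and 33773 in HetKO, and 24127, 27029 and 36778 in HM. The lines overlapped fully, with a log2 fold change of 0.01 between HM and WT (SE 0.08, adjusted p = 0.965). mt-Co2, mt-Atp6 and mt-Co3 also overlapped. Between HM and WT their log2 fold changes were -0.24 (adjusted p = 0.376), -0.31 (adjusted p = 0.36) and 0.02 (adjusted p = 0.978). Adding the copies brought the first pair to 0.02 (SE 0.05) and -0.05 (SE 0.08), and mt-Co3 to 0.28 (SE 0.13, adjusted p = 0.0864).

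**Figure D2:**
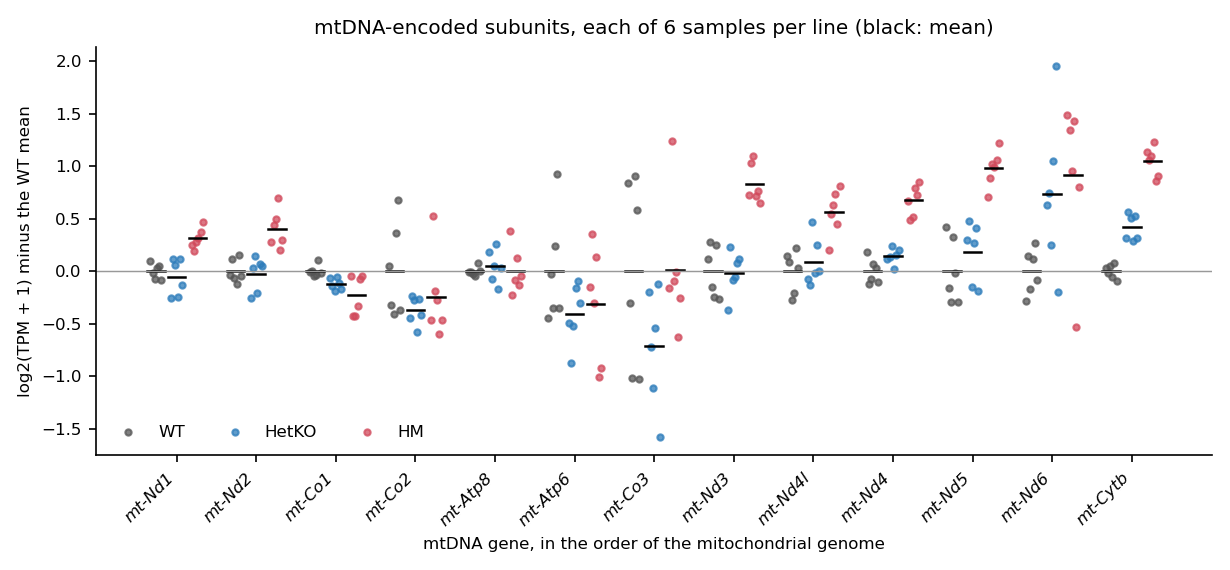
Difference in log2(TPM + 1) from the WT mean for the 13 mtDNA genes in genome order, 1 point per sample, 6 samples per line, black lines at the means. The HM points of mt-Nd1, mt-Nd2 and of the genes from mt-Nd3 to mt-Cytb lie mostly above 0, and those from mt-Co1 to mt-Co3 lie on both sides of 0 or below it.

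HetKO and WT differed little in mtDNA genes. Between them 1 of 13 members passed, mt-Cytb, at a log2 fold change of 0.42 (SE 0.06, adjusted p = 0.000568), where 10.2% of 13999 genes passed, 3.71% higher and 6.44% lower. It did not pass with pair means (0.117). mt-Nd6 had a log2 fold change of 0.74 (SE 0.28, adjusted p = 0.104) and mt-Co3 of -0.71 (SE 0.38, adjusted p = 0.244), both with overlapping samples. With copies added, 3 passed, adding mt-Nd4l at 0.20 (adjusted p = 0.0428) and mt-Co1 at -0.13 (adjusted p = 0.0351), and mt-Co3 moved to 0.01.

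Between HM and HetKO, 7 of 13 mtDNA members passed, all higher in HM, where 34.6% of 13762 genes passed, 14.0% higher and 20.6% lower. They were mt-Cytb (log2 fold change 0.63) and the complex I genes other than mt-Nd6, from mt-Nd1 at 0.37 (adjusted p = 0.00367) to mt-Nd3 at 0.84 (adjusted p = 0.000105). With copies added, 7 passed as well, and mt-Nd3 was at 0.67 (adjusted p = 0.000198). No gene of complexes IV and V passed. This comparison and that of HM with WT share the HM samples, so they are not independent. With pair means 4 of the 7 passed, mt-Nd3, mt-Nd4l, mt-Nd4 and mt-Cytb, where 454 of the 13762 genes did.

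Turning to the nucleus, 81 of 89 members were tested between HM and WT. Of these, 11 were higher and 23 lower in HM, shares of 13.6% and 28.4%, with a median log2 fold change of -0.03 where all genes had -0.09. Neither share was above that of all genes. The direction depended on how samples were scaled. Once each sample was centred on its median, 34 (42.0%) were higher and 11 (13.6%) lower, where 4508 and 2879 of the 14043 genes were. After quantile normalization 6 (7.41%) were higher and 40 (49.4%) lower, where 3632 and 3479 of the 14043 genes were. The all-gene median was then 0.08 and 0.02 and the nuclear members' 0.15 and -0.14. Pair means left 15 of the 34, 2 higher and 13 lower, while 3414 of the 14043 genes passed.

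**Figure D3:**
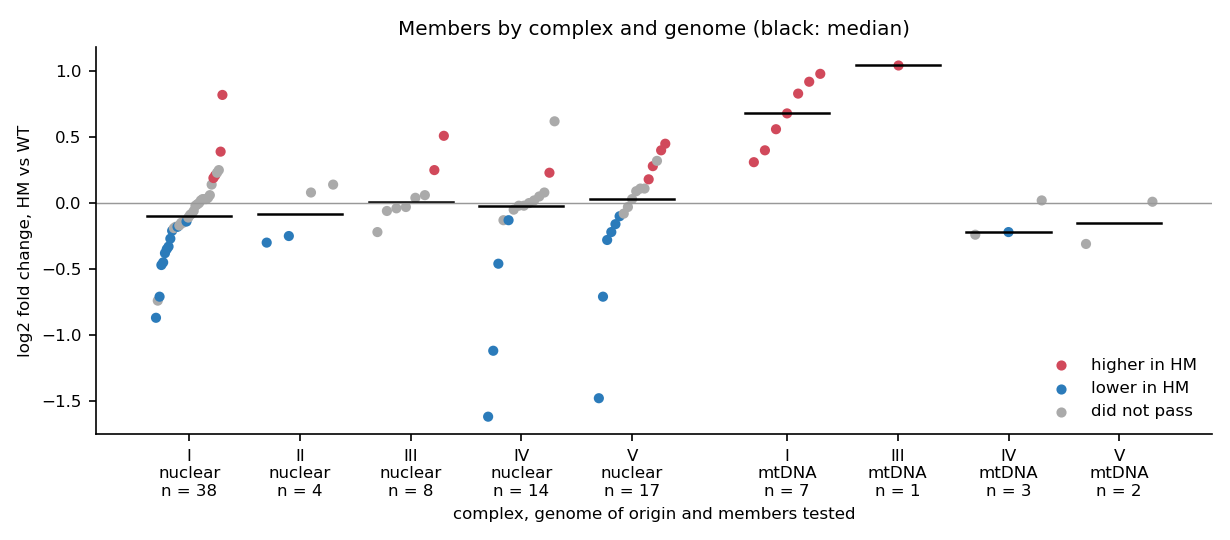
Log2 fold change between HM and WT for each of the 94 members tested, by complex and genome of origin, with the median as a black line. The nuclear groups have medians from -0.10 to 0.03, the mtDNA genes of complex I 0.68 and mt-Cytb 1.05.

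In complex I, 38 of 40 nuclear members were tested, with 4 higher and 11 (28.9%) lower, where all genes had 19.4% and 32.0%. Pair means left 1 and 7. Members were placed by name, so the 4 higher include Ndufa4, which is described with complex IV below. Ndufc2, a small accessory subunit of the membrane arm, fell most. Its TPM was 154, 182 and 195 in WT, 159, 178 and 205 in HetKO and 86.9, 95.7 and 110 in HM. HM lay apart from both other lines, at a log2 fold change of -0.87 to WT (SE 0.08, adjusted p = 6.49e-06, pair means 0.00562) and of -0.88 to HetKO (SE 0.08, adjusted p = 9.13e-06, pair means 0.0086). Ndufv3, an accessory subunit of the NADH-oxidizing module, stood at 316, 331 and 370 TPM in WT and at 150, 200 and 289 in HM. The samples did not overlap, and HM replicates 2 and 3 were the highest of their line at 289 and 266. The log2 fold change was -0.71 (SE 0.14, adjusted p = 0.00106, pair means 0.0365).

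The catalytic core moved less and in both directions. Ndufs1, the largest iron-sulfur subunit, was 86.4, 89.1 and 95.1 TPM in WT, 93.0, 102 and 107 in HetKO and 96.7, 115 and 147 in HM. Its log2 fold change to WT was 0.39 in HM (SE 0.10, adjusted p = 0.00511) and 0.16 in HetKO (SE 0.05, adjusted p = 0.0436), and neither passed with pair means. Ndufv1, which binds NADH, was 114, 118 and 122 TPM in WT and 94.2, 97.7 and 101 in HM, without overlap. Its log2 fold change of -0.27 (SE 0.04, adjusted p = 1e-04) became -0.09 with samples centred on their median (adjusted p = 0.133).

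Ndufa5, an accessory subunit of the matrix arm, was the nuclear member of any complex that rose most. It measured 55.8, 64.1 and 76.6 TPM in WT, 60.2, 75.6 and 108 in HetKO and 98.8, 119 and 130 in HM. HM was separate from WT and overlapped HetKO, where replicates 2 and 5 stood at 108 and 106. The log2 fold change was 0.82 to WT (SE 0.09, adjusted p = 1.63e-05, pair means 0.0111) and 0.56 to HetKO (SE 0.15, adjusted p = 0.0123, pair means 0.159). Ndufa7 was lower than WT in both edited lines, at -0.45 in HM (adjusted p = 0.000255) and -0.18 in HetKO (adjusted p = 0.0465). The remaining falls between HM and WT ran from -0.47 for Ndufa6 to -0.14 for Ndufs3, and Ndufa8 rose by 0.21. The Ndufs3 fall was lost with pair means (adjusted p = 0.23) and stood at 0.04 with samples centred on their median, so no direction is drawn for it, and that of Ndufa8 was lost with pair means (0.191).

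Complex II oxidizes succinate and also serves the citric acid cycle. Sdha, its flavoprotein, was 116, 143 and 149 TPM in WT, 142, 160 and 165 in HetKO and 103, 119 and 125 in HM. HM lay below all HetKO samples and overlapped WT, with log2 fold changes of -0.43 to HetKO (SE 0.07, adjusted p = 0.00047) and -0.25 to WT (SE 0.08, adjusted p = 0.0145). Sdhc, a membrane anchor, had a log2 fold change of -0.30 between HM and WT (SE 0.07, adjusted p = 0.00395). Both falls against WT were lost with samples centred on their median, at -0.07 and -0.12 (adjusted p = 0.384 and 0.237). Sdhb, the iron-sulfur subunit, did not pass between HM and WT, at 0.14 (SE 0.08, adjusted p = 0.176).

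In complex III, 2 of 8 nuclear members were higher and 0 lower between HM and WT, against 19.4% and 32.0% of all genes, and neither passed with pair means. Uqcrq, a small accessory subunit, was 181, 206 and 287 TPM in WT, 167, 222 and 331 in HetKO and 294, 324 and 328 in HM. The WT values split by pair, with replicates 1 and 4 at 286 and 287 and the other 4 between 181 and 215. HM exceeded WT by 0.51 on the log2 scale (SE 0.11, adjusted p = 0.00217, pair means 0.0521). Uqcrh, the hinge protein at cytochrome c1, had a log2 fold change of 0.25 (SE 0.07, adjusted p = 0.00694, pair means 0.103), which after quantile normalization did not pass (0.11, adjusted p = 0.07). The core protein Uqcrc1 was at 0.06 (adjusted p = 0.33) and the Rieske protein Uqcrfs1 at -0.06 (adjusted p = 0.265). Uqcrfs1 was lower in HetKO than in WT, at -0.20 (SE 0.05, adjusted p = 0.0178, pair means 0.464).

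Complex IV holds several subunits with a partner isoform restricted to certain tissues, and the low-level isoforms showed the largest falls. Cox6b2, the testis-type partner of Cox6b1, measured 13.7, 17.4 and 30.1 TPM in WT, 6.75, 14.4 and 23.7 in HetKO and 3.01, 5.78 and 8.48 in HM. HM and WT did not overlap, at a log2 fold change of -1.62 (SE 0.21, adjusted p = 7.09e-05, pair means 0.0128). Cox6b1 itself was at 440, 480 and 497 TPM in WT and 440, 495 and 532 in HM, with a log2 fold change of 0.05 (SE 0.05, adjusted p = 0.461). Cox6b2 was therefore the minor form in every line.

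Cox7a1, the heart and muscle isoform, was 11.6, 17.2 and 28.0 TPM in WT, 9.33, 18.3 and 22.9 in HetKO and 3.96, 8.55 and 11.7 in HM. WT and HM touched at 11.6 and 11.7, and the log2 fold change was -1.12 (SE 0.26, adjusted p = 0.0028, pair means 0.0445). Its broadly expressed partner Cox7a2 had 271, 300 and 334 TPM in WT and 276, 294 and 326 in HM (log2 fold change -0.02, SE 0.06, adjusted p = 0.769). Cox7a2l, a factor of respiratory supercomplexes, fell without overlap from 163, 202 and 212 TPM in WT to 126, 141 and 152 in HM, at -0.46 (SE 0.08, adjusted p = 0.000349). It held 40.4 to 44.7% of the TPM of itself and its copy Gm6969 in WT and 40.4 to 47.8% in HM. Their sum was 449 ± 60.4 TPM in WT and 317 ± 24.1 in HM (SD, n = 6 each). Sums of the striated muscle markers overlapped, at 2.21 to 5.61 TPM in WT and 3.12 to 11.8 in HM.

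**Figure D4:**
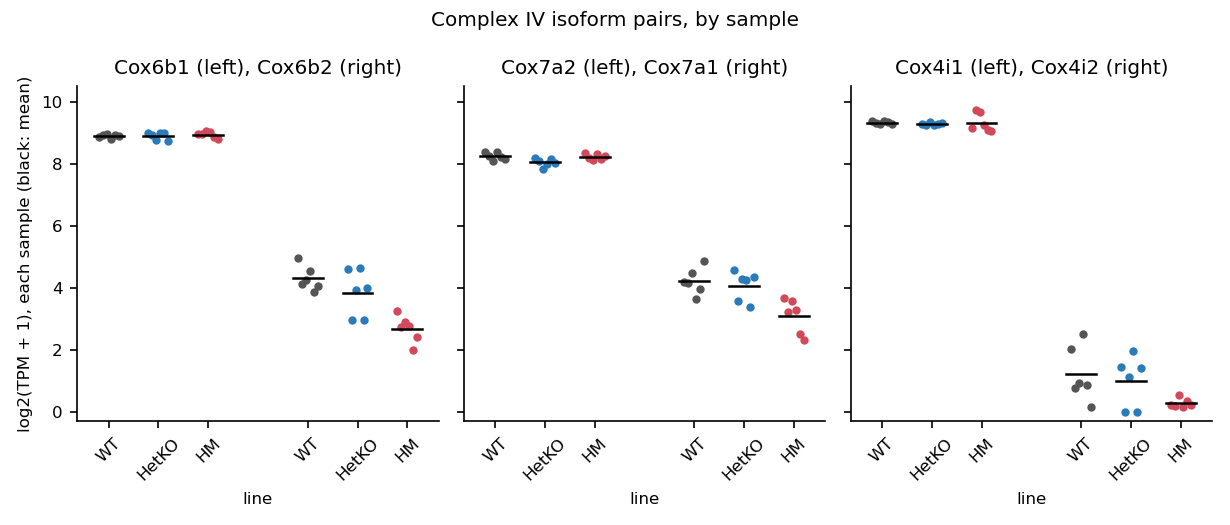
Log2(TPM + 1) of 3 isoform pairs of complex IV in each of 6 samples per line, black lines at the means. The broadly expressed form of each pair lies far above its partner, and Cox6b2 and Cox7a1 are lowest in HM.

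The other partner isoforms were near 0. Cox4i2, the lung-type partner of Cox4i1, reached 4.71 TPM in WT, 2.93 in HetKO and 0.47 in HM and was under the limit for testing in HM comparisons. Cox6a2, the muscle partner of Cox6a1, did not exceed 0.51 TPM in any sample. Cox4i1 had no HM to WT difference that passed (adjusted p = 0.989), with HM replicates 2 and 3 at 848 and 818 TPM and the other 4 HM samples between 524 and 601. Without them the value was -0.19 (adjusted p = 0.00549). Ndufa4, named after complex I and now known as a complex IV subunit, was higher than WT in HM (0.19, SE 0.04, adjusted p = 0.000971) and in HetKO (0.22, SE 0.05, adjusted p = 0.0156), and neither passed with pair means or after quantile normalization. Cox5a and Cox8a, both broadly expressed, did not pass between HM and WT, at 0.02 (adjusted p = 0.711) and -0.05 (adjusted p = 0.394). Ndufa4l2, the hypoxia-linked relative of Ndufa4, ran from 4.37 to 27.5 TPM in WT and from 1.34 to 16.7 in HM, with HM replicates 2 and 3 highest at 16.7 and 15.4. Its log2 fold change of -0.74 (SE 0.60, adjusted p = 0.321) became -1.52 without them (adjusted p = 0.0231).

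In complex V, 4 of 17 nuclear members tested (23.5%) were higher and 6 (35.3%) lower between HM and WT, near the 19.4% and 32.0% of all genes. Pair means left 1 and 2. The catalytic Atp5b and Atp5a1 were lower by little, at -0.10 (SE 0.03, adjusted p = 0.0169) and -0.16 (SE 0.05, adjusted p = 0.0169). With samples centred on their median they were at 0.07 and 0.02 instead, so no direction is drawn for them. Atp5s, a coupling factor, was 17.8, 18.8 and 22.9 TPM in WT, 9.96, 13.6 and 18.7 in HetKO and 3.72, 6.79 and 10.3 in HM. WT and HM did not overlap, and HetKO reached into both ranges, with log2 fold changes to WT of -1.48 in HM (SE 0.18, adjusted p = 4.41e-05, pair means 0.0126) and -0.50 in HetKO (SE 0.13, adjusted p = 0.0337, pair means 0.41).

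The proton-carrying c ring of the ATP synthase is built from identical subunits encoded by 3 genes, which moved apart. Atp5g3 was 490, 509 and 581 TPM in WT, 516, 561 and 672 in HetKO and 276, 328 and 339 in HM. HM was far below both lines, at -0.71 to WT (SE 0.06, adjusted p = 4.74e-06) and -0.87 to HetKO (SE 0.08, adjusted p = 4.88e-06). Atp5g2 was also lower, at -0.28 to WT (pair means 0.0741), while Atp5g1 was higher, at 0.40 (SE 0.13, adjusted p = 0.0213, pair means 0.126). Atp5k, a subunit at the dimer interface, rose from 246, 266 and 314 TPM in WT to 317, 385 and 408 in HM without overlap (log2 fold change 0.45, SE 0.07, adjusted p = 0.000319, pair means 0.0246).

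For 4 nuclear members with at least 20 tested genes within 5 Mb on the same chromosome, the median of those neighbours was shifted by 0.3 or more on the log2 scale in at least 1 comparison. Ndufa4 did not follow its 20 neighbours, whose median between HM and HetKO was -0.32 (8 lower, 1 higher), and itself stood at -0.03 (adjusted p = 0.688). Atp5g3 (ENSMUSG00000018770.9) lies on the minus strand at chr2:73908447-73911326 in GRCm38. Its 59 tested neighbours had a median log2 fold change of -0.70 between HM and WT, 38 lower and 7 higher, next to -0.71 for Atp5g3. By sample, the neighbours' median difference from the WT mean was -0.69 to -0.57 in HM and -0.07 to 0.06 in the other lines.

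Atp5f1, the b subunit of the stalk (chr3:105942698-105960099, minus strand), rose most among the members that passed between HetKO and WT. It was 329, 349 and 363 TPM in WT, 518, 526 and 711 in HetKO and 327, 366 and 695 in HM. All HetKO samples were above all WT samples, at a log2 fold change of 0.73 (SE 0.09, adjusted p = 0.000244, pair means 0.0964). Its 80 neighbours had a median of 0.52 in that comparison, 48 higher and 0 lower. The HM samples split. Atp5f1 was at 672 and 695 TPM in HM replicates 2 and 3, while the other 4 HM samples held 327 to 372. Relative to the WT mean, the neighbours' median stood at 0.58 and 0.53 in those 2 samples and ran from -0.14 to -0.11 in the rest of HM.

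Ndufs4, an accessory subunit of the matrix arm of complex I (chr13:114287795-114388258, minus strand), was 103, 125 and 183 TPM in WT, 82.5, 97.9 and 119 in HetKO and 125, 165 and 191 in HM. HM was above all HetKO samples (log2 fold change 0.67, SE 0.12, adjusted p = 0.00142, pair means 0.0827). Its 23 neighbours had a median of 0.74 between HM and HetKO, 19 higher and 0 lower. WT replicates 1 and 4 held 183 and 176 TPM and the other WT samples 103 to 127, and the neighbours of those 2 samples were also above the WT mean, by 0.33 and 0.29. Copy number was not measured, and its part in these shifts was not tested.

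**Figure D5:**
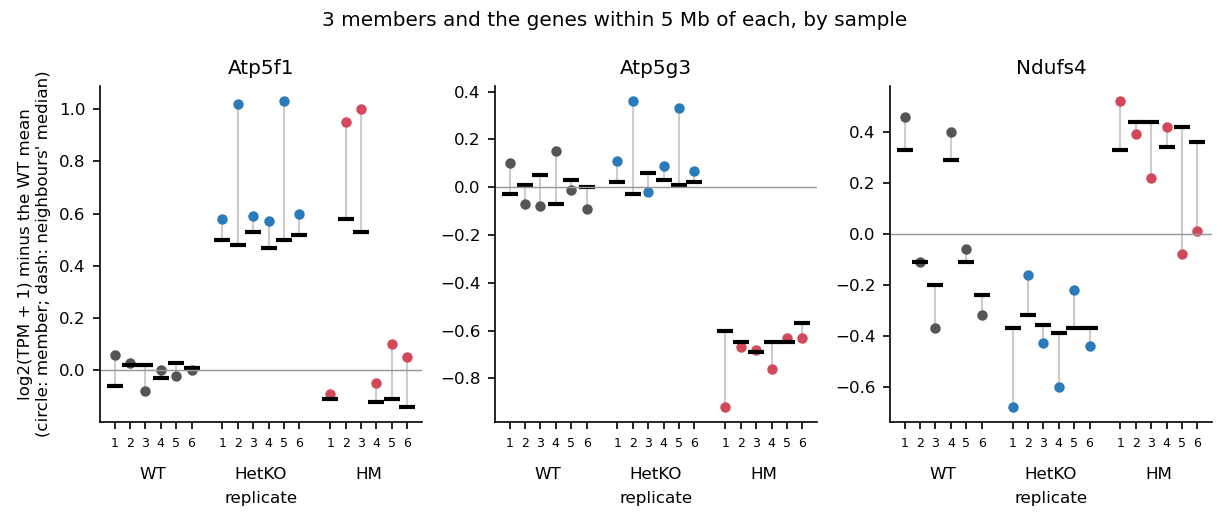
Difference in log2(TPM + 1) from the WT mean for Atp5f1, Atp5g3 and Ndufs4 (circles) and the median of the same difference over genes within 5 Mb (dashes), by sample. Dashes are raised in HetKO for Atp5f1 (0.47 to 0.53) and lowered in HM for Atp5g3 (-0.69 to -0.57), as the circles are, and for Atp5f1 only HM replicates 2 and 3 are raised.

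Between HetKO and WT, 10 of 82 nuclear members passed, 3 higher and 7 lower, shares of 3.66% and 8.54%, close to those of all genes. After quantile normalization they were 1 and 12, where 728 of the 13999 genes were higher and 787 lower. With samples centred on their median they were 7 and 2, where 768 and 748 of all genes were. Beside those named above, Cox7b (-0.21, adjusted p = 0.0318) and Cox6a1 (-0.17, adjusted p = 0.0238) of complex IV were lower without overlap. None of the 10 passed with pair means, where 35 of the 13999 genes did. Between HM and HetKO, 29 of 81 passed, 10 (12.3%) higher and 19 (23.5%) lower, close to the 14.0% and 20.6% of all genes. With pair means only Ndufc2 and Atp5g3 did, where 454 of the 13762 genes passed. Quantile normalization gave 6 higher and 26 lower, where 2357 and 2424 of the 13762 genes were. Centring gave 21 and 10, where 2961 and 1900 of all genes were. Cox7c, a small complex IV subunit, rose by 0.47 between HM and HetKO (SE 0.06, adjusted p = 0.000115), and Atp5l of complex V by 0.45 (SE 0.06, adjusted p = 0.000262), both without overlap. Both shared TPM with a copy. In HM, Cox7c held 61.4 to 74.8% of the sum with Gm12338, and Atp5l 73.1 to 82.5% of that with Gm10221. The mean sums in HetKO and HM were 754 and 1066 TPM for Cox7c and 476 and 658 for Atp5l. Uqcrc2, the second core protein of complex III, fell by 0.26 (SE 0.06, adjusted p = 0.00642).

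Promoters from RefSeq (GRCm38.p6, 250 bases before to 50 after the start) were at hand for 66 of the 89 nuclear members. They were searched on both strands for 3 short cores of factors known to control respiratory genes. The NRF1 core GCGCATGC was in 15.2% of them and in 3.05% of the promoters of 27025 genes, the ETS core CCGGAAG, bound by GABP, in 24.2% and 9.93%, and the YY1 core AAGATGGC in 13.6% and 3.19%. At least 1 core was found for 43.9% of members and 14.9% of all genes. The members higher in HM held the NRF1 core in 3 of 9 and the ETS core in 4 of 9, and those lower in 2 of 19 for each. Among members that did not pass, 5 of 36 and 10 of 36 held them. The YY1 core was in 1 of 9 higher, 1 of 19 lower and 7 of 36 that did not pass. These are descriptions of letters in a window, and matches of the NRF1 core on both strands may overlap. Stretches of 30 bases before the start are shown for 2 members that were higher in HM, Atp5k (chr5:108434431-108434460) and Uqcrh (chr4:116075071-116075100), and for Sdhb (chr4:140961206-140961235), which did not pass. The first pair are on the minus strand and Sdhb on the plus strand, and capitals mark the cores.
Atp5k: ctttcactgcgGCGCATGCGCctttctggc
Uqcrh: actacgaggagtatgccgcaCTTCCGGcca
Sdhb: aagcccagtggGCATGCGCcctacgggccg

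The genes that make and supply the system moved in both directions between HM and WT, a comparison in which 19.4% of all genes were higher and 32.0% lower, with a median of -0.09. Of 78 mitochondrial ribosome proteins, which translate the mtDNA messages, 34 were higher and 9 lower, with a median log2 fold change of 0.19. Mrpl20 rose by 1.09 (SE 0.08, adjusted p = 1.67e-06), from 131 ± 9.93 TPM in WT and 189 ± 56.3 in HetKO to 282 ± 34.3 in HM (SD, n = 6 each), while Mrpl14 fell by 0.51 (SE 0.11, adjusted p = 0.0021). Of 20 genes that keep and transcribe mtDNA, 6 were higher and 7 lower, among them Top1mt, the mitochondrial topoisomerase, at -0.93 and Dguok, which supplies nucleotides, at -0.72 on the low side and the transcription factor Tfb2m at 0.42 on the other. Of 19 genes for processing mitochondrial RNA, 5 were higher and 2 lower. Elac2, which cuts the 3′ ends of transfer RNAs, was at 0.80 (SE 0.16, adjusted p = 0.00124) and Fastkd5, which acts on transcripts lacking a transfer RNA at the boundary, at 0.84 (SE 0.15, adjusted p = 0.000504). Fastkd1 was at -0.97 (SE 0.07, adjusted p = 1.34e-06). With pair means, 13 ribosome proteins were higher and 3 lower, 1 and 5 of the mtDNA upkeep genes, and 5 and 2 of the RNA processing genes. Of all 14043 genes tested, 1182 were then higher and 2232 lower.

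Assembly factors were mixed, with 4 higher and 5 lower of 16 for complex I (median -0.09) and 10 higher and 9 lower of 35 for complexes II to V (median 0.08), beside the 19.4% and 32.0% of all genes, which also stand beside the next 3 lists. Ndufaf7, a mitochondrial methyltransferase, fell by 0.98 (SE 0.10, adjusted p = 1.43e-05), and Bcs1l, which inserts the Rieske protein into complex III, fell by 0.69 (SE 0.08, adjusted p = 3.06e-05). Of 12 regulators tested, 5 were higher, among them Yy1 at 0.38, and 3 lower, with the nuclear receptor Esrra at -0.76 (SE 0.12, adjusted p = 0.000236). In the citric acid cycle 3 of 17 were higher and 6 lower, with Idh2 at -0.90 among them. Of 19 electron carrier and ATP export genes, 6 were higher and 9 lower, with values from Coq8a, a kinase-like protein of ubiquinone synthesis, at -1.60 to Coq10b at 0.90. Pair means left 0 higher and 1 lower for complex I assembly, 3 and 5 for the other assembly factors, and 1 and 1 for regulators. They left 0 and 2 for the citric acid cycle, and 2 and 4 for carriers and export. Over all 14043 genes they left 1182 and 2232. Between HetKO and WT, 7 of 78 mitochondrial ribosome proteins were higher and 1 lower, where 3.71% and 6.44% of all genes were. With pair means none of them passed, where 35 of 13999 genes did.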

How the data were processed

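Poly(A) RNA of 18 samples, 6 per line, was made into stranded libraries and sequenced in pairs. The authors merged read pairs with BBMerge and quantified genes with RSEM, and the deposited values are TPM rounded to 2 decimals, each sample summing to 1000000. Cutadapt, STAR and mm10 are named in the submitters' processing notes, with versions not given in the sources used here. All 55450 gene IDs matched GENCODE M21 (GRCm38). TPM keeps no depth, so the depth of each sample is unknown and no count test was run.

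In each comparison, genes averaging 1 TPM or more in its 12 samples entered limma 3.58.1 (R 4.3.3) on log2(TPM + 1), which understates the change of low genes, with a mean-variance trend and Benjamini-Hochberg adjustment. Tested on simulated data (HM vs WT, 14043 genes), limma recovered 189 of 200 2-fold changes with 8 false calls. The simulated samples were independent, without the likeness within pairs, so these counts do not give the rate of false calls in the real samples. Alternatives changed the scaling, pseudocount, filter, test, block and samples. Copies were gene models sharing at least 50 runs of 75 bases and 50% of their own runs with a member. Plots and sequences used Python 3.11.15 with matplotlib 3.10.9 and Biopython 1.88. Replicate numbers did not pair the lines.

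Named members were all mtDNA genes, defining subunits, isoforms with a tissue-restricted partner, the largest rises and falls per complex and members in shifted chromosome windows, and from other lists the 2 largest rises and falls. Atp5g2, Ndufa6, Ndufs3 and Ndufa8 were named after their values were seen. The members and all lists were chosen with earlier results of these data known.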

Additional observations from a re-analysis of the deposited data

Results flagged for a closer look

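In each line the highest or lowest of 6 samples was set against the range of its group for 156 groups. Of these, 6 had a sample far from the others, where chance gives about 1 in 20 (7.8) if the samples are independent. Here the samples of a line fell into alike pairs, so that rate need not hold and nothing is drawn from setting 6 against 7.8.

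mt-Co1 stood at 10930 TPM in WT replicate 5 and between 9821 and 10157 in the other WT samples. mt-Co2 stood at 3246 TPM in HM replicate 2 against 1485 to 1975, and mt-Co3 at 4565 in the same sample against 1248 to 1917. With the chromosome 1 copies added, HM replicate 2 was at 9681 TPM for mt-Co2 and 5867 for mt-Co3, inside the range of the other HM samples for both. Cox6a2 was listed at 0.17 TPM in WT replicate 3 and at 0 in the other WT samples, and at 0.51 in HM replicate 3 against 0 to 0.14. Ndufa7 stood at 362 TPM in HetKO replicate 2 against 387 to 399.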

How the results depend on the processing

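TPM carries no depth, so how precise each value is from counting alone is unknown. With pair means as replicates (3 per line, limma), nuclear members called between HM and WT went from 34 to 15, and between HM and HetKO from 29 to 2. Over all genes tested, the calls went from 7220 to 3414 and from 4765 to 454. Between HetKO and WT pair means gave 0 nuclear calls (10 with all samples, 6 by an unequal-variance test per gene) and 0 mtDNA calls, and between HM and HetKO 4 mtDNA calls in place of 7. The mtDNA calls between HetKO and WT, 1 with all samples, were 2 at a mean of at least 5 TPM, 2 after quantile normalization, 2 with the replicate number as a block, and 3 with copies added, which was chosen after seeing the data. Between HM and WT, the nuclear members' median of -0.03 (log2) became -0.14 after quantile normalization and 0.15 with samples centred on their median. Centring also moved the mtDNA median there from 0.40 to 0.58, and the nuclear medians of HetKO to WT to 0.02 and of HM to HetKO to 0.09. The sign turned with centring for Uqcrfs1 (0.11), Atp5a1 (0.02), Atp5b (0.07), Cox7b (0.05) and Ndufs3 (0.04) between HM and WT, with quantile normalization for Cox5a (-0.12), and without HM replicates 2 and 3 for Cox4i1 between HM and HetKO (-0.16). The cause was not tested. Of 151 values of named members, 44 lost their call with pair means, 10 after quantile normalization, 13 with centring and 7 with the block, and none changed with a pseudocount of 0.1. A call was gained by 0 with pair means, 10 after quantile normalization, 13 with centring and 2 with the block. Values whose sign turned, 1 after quantile normalization and 4 with centring, are counted apart from these. The block on replicate numbers left 9 higher and 23 lower nuclear members between HM and WT, and the numbers' mean correlations, 0.005, 0.062 and 0.021, gave no sign of pairing.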
